A study of Mus musculus with 3 samples.

Results

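Cytosolic ribosomal protein genes were followed in mouse stromal cells and T lineage cells given pAsc, phospho-ascorbate, which cells convert to vitamin C. The members were the genes of all probes, control spots left out, whose gene name is Rpl or Rps followed by a number and at most a short suffix. Ribosomal S6 kinases, which begin with the same letters, were left out. The rule gave 79 genes among 27827 gene names on the array, 48 of the large subunit (Rpl) and 31 of the small subunit (Rps), carried by 135 probes. A single probe stood for 37 genes, 30 genes had 2 probes, 10 had 3 and 2 had 4.

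The cells were measured in 3 settings, each on 1 array of 2 colours with untreated RNA in Cy3 and RNA from cells given 800 µM pAsc in Cy5. In the first setting, OP9-DL1 cells of the strain B6-C3Hf1 in continuous culture received pAsc for 24 h without T lineage cells. OP9-DL1 cells are a stromal line and display Dll1, a ligand of Notch, and their labelled cell type is osteoblast. In the other settings, bone marrow progenitors of C57BL/6 mice grew on OP9-DL1 cells with Flt3L and IL7. One of them had pAsc for the last 24 h of 14 days and the other had it for the last 72 h of 17 days, each beside untreated cells of the same day. The stromal cells were then depleted by a short adherence step. Neither a replicate array nor a dye swap was made, so no test was possible. A fixed dye effect of a probe and a response to pAsc cannot be told apart on a single array.

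A ribosome is built from ribosomal RNA and about as many proteins as there are genes here, usually 1 copy of each protein per particle. Growing cells make these proteins in matched amounts, and their mRNAs rank among the most abundant of the cell. Most of these mRNAs begin with a C followed by a run of pyrimidines, the terminal oligopyrimidine (TOP) motif, through which growth signals control how much of the mRNA is translated. An array of mRNA levels does not read that control.

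Start sequences were searched for a pyrimidine run and for an ETS motif, and most matched members lacked each of them in the window read. RefSeq promoters (build GRCm38.p6) were matched for 59 of the 79 genes. A C and at least 4 more pyrimidines directly at the annotated start were found in 12 of these 59, or 20.3%, against 3.01% of 27025 genes. The motif CCGGAAG, the core bound by ETS factors, lay on either strand in the promoter sequence of 23 of 59, or 39%, against 9.93% of all genes. Windows of 4 genes are printed from 15 bases before the start to 15 bases within the transcript, with the pyrimidine run in capitals. They are Rps6 (chr4:86857353-86857382, minus strand), Rpl35 (chr2:39005117-39005146, minus strand), Rpl28 (chr7:4792950-4792979, plus strand) and Rpl38 (chr11:114668565-114668594, plus strand).
Rps6: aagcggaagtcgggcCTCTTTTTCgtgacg
Rpl35: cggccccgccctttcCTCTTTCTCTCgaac
Rpl28: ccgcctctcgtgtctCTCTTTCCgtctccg
Rpl38: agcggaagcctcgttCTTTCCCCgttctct

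Probes are shown for the genes on which the comparisons below turn. Their positions are on mm9, per the file headers. Rpl7a, whose probes disagree most, has 3, called bright, middle and dim here: the bright one at chr2:26768694-26768753, the middle one at chr2:26766993-26767052 and the dim one at chr2:26768740-26768798, all on the plus strand. Capitals mark the 14 bases that the bright and dim probes share. The 60 bases of the dim probe are placed on 59 bases of the genome.
Rpl7a bright probe: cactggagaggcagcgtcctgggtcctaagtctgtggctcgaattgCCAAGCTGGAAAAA
Rpl7a middle probe: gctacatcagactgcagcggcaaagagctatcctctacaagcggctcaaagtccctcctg
Rpl7a dim probe: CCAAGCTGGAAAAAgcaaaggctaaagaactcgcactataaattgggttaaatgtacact

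The probes of Rpl5 (chr5:108332860-108333767, plus strand), Rps24 (chr14:25311322-25312647, plus strand) and Rps26 (chr10:128062363-128063147, minus strand) each span more of the genome than their 60 bases, as a probe over an exon junction does. They are shown in lower case throughout. Rpl5 stands out in T cells at 24 h, Rps24 in stromal cells and Rps26 in T cells at 72 h.
Rpl5: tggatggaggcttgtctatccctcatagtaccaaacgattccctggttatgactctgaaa
Rps24: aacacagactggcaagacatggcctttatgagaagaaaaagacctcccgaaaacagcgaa
Rps26: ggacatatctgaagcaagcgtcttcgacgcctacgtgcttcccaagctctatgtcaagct

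Each gene is represented by its brightest probe. A gene counted as measured where both channels were well above background at its spots and these were not flagged as outliers by the scanner software. Of the 79 genes, 75 were measured in stromal cells, and 70 at 24 h and 74 at 72 h in T cells. All genes missing on the T cell arrays, 9 and 5, were lost to outlier flags, and in stromal cells 2 were flagged and 2 were not well above background. Repeat spots of a probe had a log2 SD of 0.068, 0.070 and 0.066 on the 3 arrays. Of 11 T lineage markers, 1 was above background in untreated stromal cells, and 10 and 11 were in the T cell cultures. Stromal markers were also present there, 10 and 11 of 12 in untreated RNA.

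The members were far brighter than most genes on the arrays. Brightness here is the mean log2 signal of both channels. Its median over the 79 genes was 16.21 in stromal cells, and 16.13 at 24 h and 16.10 at 72 h in T cells, against 9.57, 9.36 and 9.72 over all measured genes. Members made up 48 of the 138 measured genes with a brightness of at least 16 in stromal cells, 39 of 93 in T cells at 24 h and 42 of 94 at 72 h. None of their spots was saturated.

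After loess normalization the members lay above 0 on every array. A loess log2 ratio above 0 means more signal in treated than in untreated RNA, after a smooth curve over brightness has been taken out. The median log2 ratio of the members was 0.34 in stromal cells, and 0.44 at 24 h and 0.18 at 72 h in T cells, while the median of all measured genes was 0.02, 0.02 and 0.01. In stromal cells 60 of 75 members lay above 0, against 53.4% of all measured genes. In T cells it was 67 of 70 at 24 h, against 54.7%, and 52 of 74 at 72 h, against 51%. The direction was shared by most members, and the sizes were small.

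No member was 2-fold higher on any array, where 0.432%, 0.312% and 0.227% of all measured genes lay at least 2-fold higher. At least 1.5-fold higher were 17 members in stromal cells (2.2% of all measured genes), and 23 at 24 h (3.19%) and 3 at 72 h (1.93%) in T cells. None was 1.5-fold lower, against 2.78%, 0.229% and 1.93% of all measured genes. With the scanner software's own deposited ratio, which follows its own dye correction, the member medians were 0.07, 0.12 and -0.02. None of the 17, 23 and 3 genes then stayed past 1.5-fold, where 4.48%, 5.07% and 4.08% of all genes did. That ratio placed 1 member, Rps24 in stromal cells, at least 1.5-fold lower, against 6.68%, 2.43% and 4.74% of all genes on the 3 arrays.

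**Figure D1:**
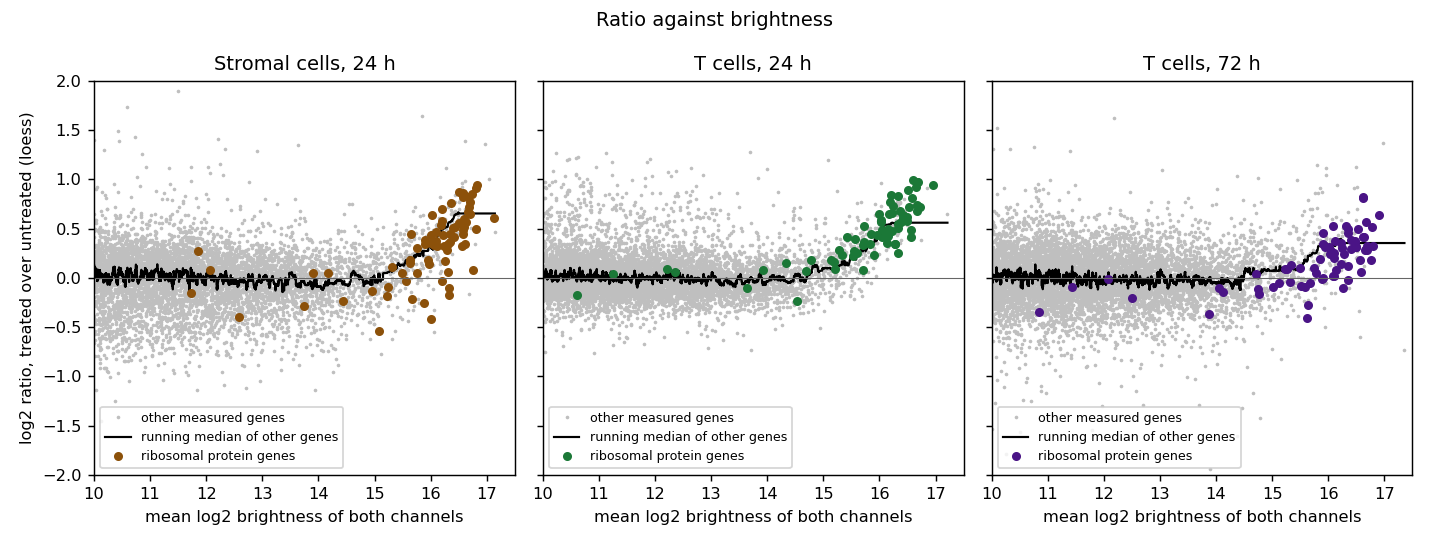
The log2 ratio of treated over untreated RNA after loess (vertical axis) is plotted against mean log2 brightness (horizontal axis, shown from 10) for the stromal cells and for T cells at 24 h and 72 h. Coloured points are ribosomal protein genes, grey points other measured genes and the black line the running median of the other genes, which climbs above 0 where most members lie. Rpl3l and Rpl39l are dimmer than the axis start.

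The ratio depended on brightness, and it did so in genes outside the family too. Between a brightness of 16 and 16.5 the median ratio was 0.40 for 26 members and 0.49 for 65 other genes in stromal cells. In T cells at 24 h it was 0.57 for 26 members and 0.56 for 46 others, and at 72 h it was 0.30 for 26 members and 0.36 for 42 others. In this bin the members lay near other genes, and in some bins below it they did not. Between 15.5 and 16 the medians were 0.18 for 13 members and 0.21 for 108 others in stromal cells, and 0.34 and 0.27 for 13 and 85 in T cells at 24 h. At 72 h they were -0.00 for 13 members and 0.25 for 81 others. Between 15 and 15.5 in stromal cells they were -0.09 for 5 members and 0.06 for 130 others. In T cells they were 0.21 for 6 members and 0.12 for 123 others at 24 h, and 0.09 for 7 and 0.08 for 130 at 72 h. Between 15 and 16 the members were thus the lower set in stromal cells, by little from 15.5, and the higher set at 24 h. At 72 h they were lower between 15.5 and 16 and nearly level with the others between 15 and 15.5.

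Members between 14 and 15 had smaller ratios, below 0 at the median in stromal cells and at 72 h. The medians were -0.13 for 3 members in stromal cells, 0.11 for 4 in T cells at 24 h and -0.11 for 5 at 72 h. For 490, 433 and 510 other genes of that brightness they were -0.04, 0.005 and -0.007. Above 16.5 they were 0.66, 0.81 and 0.37 for 22, 13 and 16 members, and 0.77, 0.62 and 0.24 for 25, 8 and 10 other genes. In that brightest bin the T cell members were above the few other genes and the stromal members below them.

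Across the measured members, Spearman's correlation of the ratio with brightness was 0.75 in stromal cells (75 genes), 0.86 in T cells at 24 h (70 genes) and 0.74 at 72 h (74 genes). With the scanner software's ratio it was 0.53, 0.64 and 0.53. These correlations are across genes of single arrays, which share dye, depth and slide, and they are given as a description. Before any dye correction the members' Cy5 signal exceeded Cy3 by a median log2 of 2.22, 2.15 and 1.97, against 1.16, 1.22 and 1.22 for all genes.

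**Figure D2:**
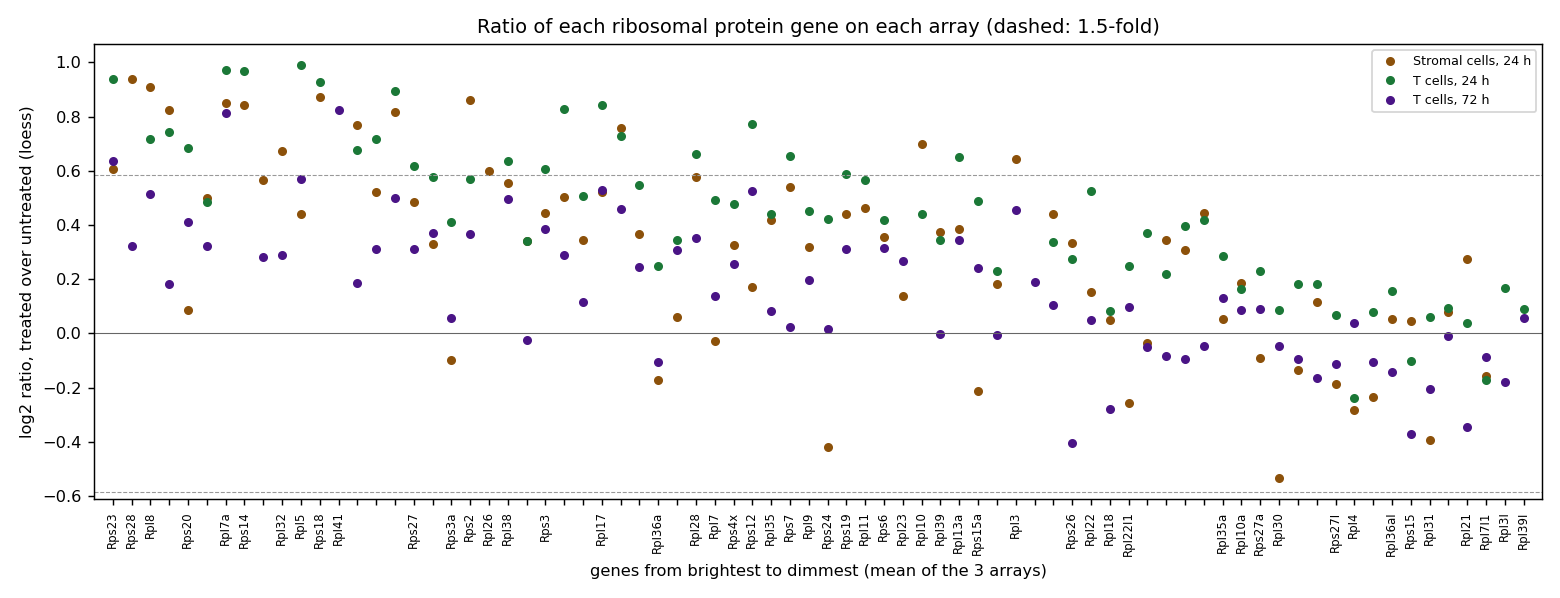
Each column is 1 ribosomal protein gene, with 3 of the 79 members not drawn and names given for those in the text, from brightest at the left to dimmest at the right, and each point its log2 ratio of treated over untreated RNA after loess on 1 array. The points drift downward from left to right, and T cells at 72 h mostly lie below T cells at 24 h. A missing point was flagged or not above background.

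To describe members beside equally bright genes, the running median of 51 other genes at the same brightness was subtracted from each ratio. The member median was then -0.08 in stromal cells, and 0.07 at 24 h and -0.07 at 72 h in T cells. Above 0 were 29 of 75, 48 of 70 and 23 of 74 members. Past 1.5-fold higher there was none, against 1.52%, 2.47% and 1.65% of all measured genes. Past 1.5-fold lower there were 3 in stromal cells, none at 24 h and 1 at 72 h in T cells, against 3.29%, 0.306% and 2.11%. So the family as a whole lay close to other genes of its brightness, slightly above them at 24 h in T cells and slightly below in the other settings. Above a brightness of 16.50, 16.31 and 16.28 the running median is flat, because its window has reached the brightest other gene. The 23, 23 and 27 members above these limits were all set against the same genes, so their values are the least certain. The members below the limits had medians of -0.10, 0.06 and -0.13, with 18 of 52, 30 of 47 and 8 of 47 above 0.

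**Figure D3:**
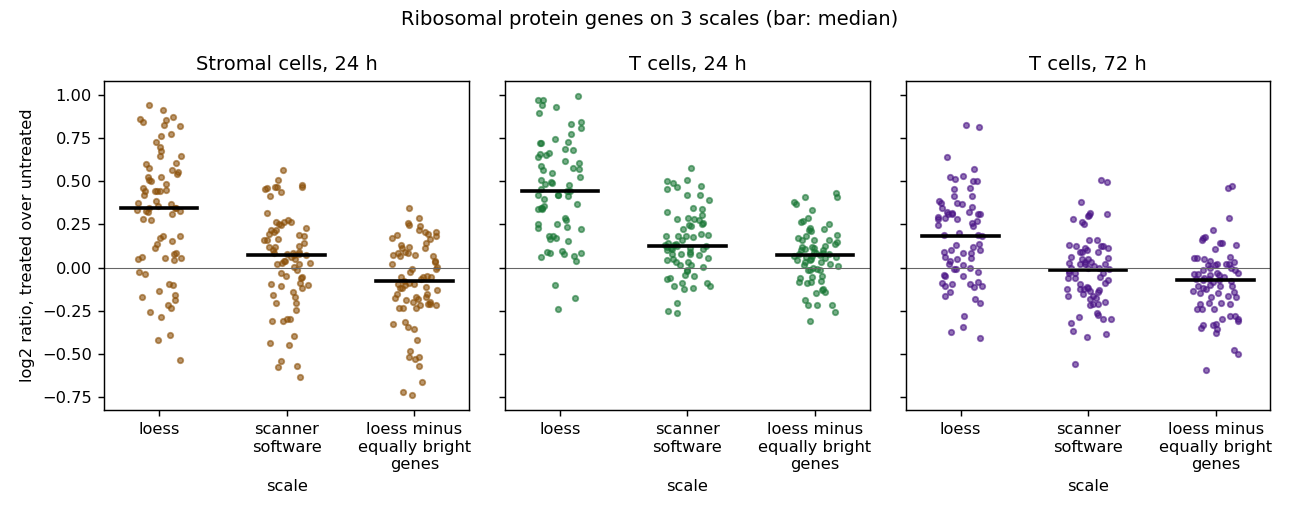
The log2 ratio of each measured ribosomal protein gene is shown on 3 scales (horizontal axis) for each array: after loess, as given by the scanner software, and after loess with the running median of equally bright other genes subtracted. Bars are medians, which move from 0.34, 0.44 and 0.18 after loess to -0.08, 0.07 and -0.07 beside equally bright genes.

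Probes of the same gene repeated the pattern. Among genes with at least 2 measured probes, the brightest probe had the higher ratio in 30 of 37 genes in stromal cells, 33 of 38 in T cells at 24 h and 28 of 38 at 72 h. The median difference, brightest minus dimmest probe, was 0.42, 0.40 and 0.24. With the scanner software's ratio it was 0.23, 0.15 and 0.07, with the brightest probe higher in 26 of 37, 27 of 38 and 24 of 38 genes. Some dim probes were designed on other transcripts, since the 23 probes with no RefSeq mRNA in the file had a median brightness of 9.27 against 15.91 for the other 112. Among probes listed under a RefSeq mRNA alone, the brightest was higher in 18 of 23, 18 of 22 and 21 of 25 genes. In 10, 5 and 14 of these genes the probes lay on both sides of 0, so the sign given for a gene is that of its brightest probe. The log2 SD between probes of a gene was 0.32, 0.31 and 0.24, several times the SD of repeat spots.

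Rpl7a, a large subunit protein near the peptide exit tunnel, gave the widest spread. Its bright probe, at a mean brightness of 16.68, had log2 ratios of 0.85 in stromal cells, and of 0.97 at 24 h and 0.81 at 72 h in T cells. Its middle probe, at 15.84, had 0.34, 0.21 and 0.07, and its dim probe, at 13.95, had -0.12, -0.10 and -0.26. The ratio fell with brightness in the same order on each array, although the bright and dim probes overlap. The scanner software's ratios for the 3 probes in T cells at 24 h were 0.47, -0.13 and -0.12. The gene is thus among the highest members through its bright probe only.

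Other wide pairs followed. Rps18, a small subunit protein of the head, had 0.93 at its bright probe and 0.04 at its dim probe in T cells at 24 h. Rps3, a small subunit protein at the mRNA entry with a further role in DNA repair, had 0.39 and -0.46 at 72 h. Rps12, also of the small subunit, had 0.77 and -0.03 in T cells at 24 h, and Rps28 had 0.94 and 0.16 in stromal cells. In each the brighter probe was the higher one, but the dim probes of Rps18, Rps12 and Rps28 have no RefSeq mRNA in the file.

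**Figure D4:**
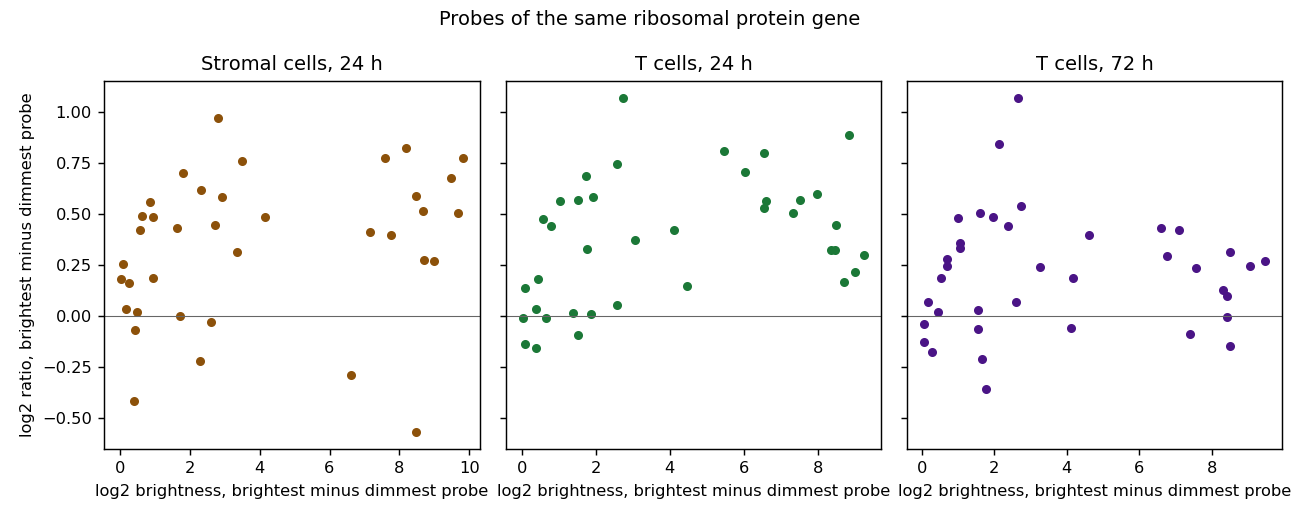
Each point is 1 ribosomal protein gene with at least 2 measured probes. The difference in loess log2 ratio between its brightest and dimmest probe (vertical axis) is plotted against their difference in log2 brightness (horizontal axis), and most points lie above 0 on each array.

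Both subunits had similar medians. In stromal cells the median ratio was 0.38 for 44 Rpl genes and 0.34 for 31 Rps genes. In T cells it was 0.41 for 42 Rpl and 0.50 for 28 Rps genes at 24 h, and 0.13 for 45 and 0.25 for 29 at 72 h. The ranges overlapped almost wholly on each array.

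In stromal cells the ratios ran from -0.53 for Rpl30 to 0.94 for Rps28. Rps28, Rpl8, Rps18, Rps2 and Rpl7a were the highest, at 0.94, 0.91, 0.87, 0.86 and 0.85. Rpl8 contacts the peptidyl transferase centre, and Rps2 lies at the mRNA entry channel. All 5 had a brightness above 16.5, and beside equally bright genes they lay at 0.29, 0.26, 0.22, 0.21 and 0.20. The running median is flat there, so all 5 were set against the same genes and these values are among the least certain. The 25 other genes above 16.5 had a median ratio of 0.77. Lowest were Rpl30, Rps24, Rpl31, Rpl4 and Rpl22l1, at -0.53, -0.42, -0.39, -0.28 and -0.26.

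Like Rpl36a and Rpl22l1, Rps24, a small subunit protein mutated in Diamond-Blackfan anaemia, was bright and yet low in stromal cells. Its scaled log2 signal was 16.12 in untreated and 15.70 in treated stromal cells. In T cells these signals were 15.98 and 16.40 at 24 h, and 16.18 and 16.20 at 72 h. Only in stromal cells was the treated signal the lower one. Its ratio was -0.42 after loess, -0.63 by the scanner software and -0.72 beside equally bright genes. Its dimmer probes, neither with a RefSeq mRNA in the file, had -0.39 and 0.15. Rpl36a at -0.74 and Rps3a at -0.66 were the other members 1.5-fold below equally bright genes there, and these 3 were below such genes on all 3 arrays. After loess Rpl36a had -0.17 at this probe in stromal cells, and -0.06 and 0.25 at its dimmer probes, also listed under a RefSeq mRNA. By the scanner software these probes of Rpl36a, from brightest to dimmest, had -0.45, -0.30 and -0.04, so the dimmest did not share the low value. The dimmer probes were not set beside equally bright genes. After loess Rps3a had -0.10, and -0.29 at its dimmer probe. Over all members measured on every array, 16 of 64 were below equally bright genes on all 3 and 8 were above on all 3. These counts were not set beside the same counts over all genes, so they only describe the members.

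The stromal ratio and the T cell ratio at 24 h were set side by side for 68 members. The difference, stromal minus T cell, had a median of -0.12, against -0.03 for all genes measured on both. In 17 members the ratio was higher in stromal cells, against 6347 of the 13757 genes measured on both. At least 1.5-fold lower in stromal cells were 5 members (7.71% of all genes measured on both) and none was 1.5-fold higher (2.03%). The 5 were Rps24 at -0.84, Rps15a at -0.70, Rpl30 at -0.62, Rps12 at -0.60 and Rps20 at -0.60. These were 7.35% of the 68 members, near the share of all genes, so no pattern of the family is read from them. All but Rpl30 are small subunit proteins. All 5 lay above 0 in T cells at 24 h, as did 67 of the 70 members measured there. Rps15a and Rps20 are named here only for this count. The GC content of the probe correlated with the stromal ratio across members (Pearson's r 0.33, 75 genes), and with r 0.06 and -0.06 on the T cell arrays. Its part in the stromal values was not tested.

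In T cells at 24 h the ratios ran from -0.24 for Rpl4 to 0.99 for Rpl5. Rpl5, which carries the 5S ribosomal RNA into the large subunit and also binds the p53 inhibitor Mdm2, had scaled log2 signals of 16.14 untreated and 17.13 treated. At 72 h it had 16.42 and 16.99, and in stromal cells 16.25 and 16.69. The treated signal was the higher one in each setting. Its ratio at 24 h, 0.99, was 0.57 by the scanner software and 0.43 beside equally bright genes, the highest member on both scales. The 0.43 is among the least certain values, since its brightness of 16.59 lies above 16.31, where the running median is flat.

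Rpl7a at 0.97, Rps14 at 0.97, Rps23 at 0.94 and Rps18 at 0.93 followed Rpl5. Rps23, at the decoding centre, was the brightest member on this array, at 16.95. The lowest were Rpl4 at -0.24, Rpl7l1 at -0.17, Rps15 at -0.10, Rpl21 at 0.04 and Rpl31 at 0.06. All 5 had a brightness below 15.

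In T cells at 72 h the 3 members past 1.5-fold were Rpl41 at 0.83, Rpl7a at 0.81 and Rps23 at 0.64. Rpl41, the shortest ribosomal protein, was flagged on the other arrays. Rpl5 at 0.57 and Rpl17 at 0.53 came next. Lowest were Rps26 at -0.41, Rps15 at -0.37, Rpl21 at -0.34, Rpl18 at -0.28 and Rpl31 at -0.21.

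The longer treatment had the lower ratios. Over 66 members measured on both T cell arrays, the ratio at 72 h minus that at 24 h had a median of -0.29, against -0.03 for all genes measured on both. It was above 0 in 3 of 66 members, among them Rpl4 at 0.28 and Rpl7l1 at 0.09, against 43.9% of all genes. At least 1.5-fold lower at 72 h were 2 members, Rps26 at -0.68 and Rps7 at -0.63 (2.56% of all genes), and none was 1.5-fold higher (0.919%). The median was -0.17 with the scanner software's ratio and -0.16 beside equally bright genes. The arrays differ in day of culture as well as in hours of pAsc, and with 1 array each the 2 cannot be told apart.

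Rps26, a small subunit protein at the mRNA exit channel and another Diamond-Blackfan gene, changed sign between the T cell arrays. Its scaled log2 signal was 15.45 untreated and 15.72 treated at 24 h, and 15.88 untreated and 15.47 treated at 72 h. In stromal cells it was 15.78 and 16.12. The treated signal was thus lower only at 72 h, where the ratio was -0.41 after loess, -0.56 by the scanner software and -0.59 beside equally bright genes. Rps7, which also binds Mdm2, had 0.65 at 24 h and 0.02 at 72 h.

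**Figure D5:**
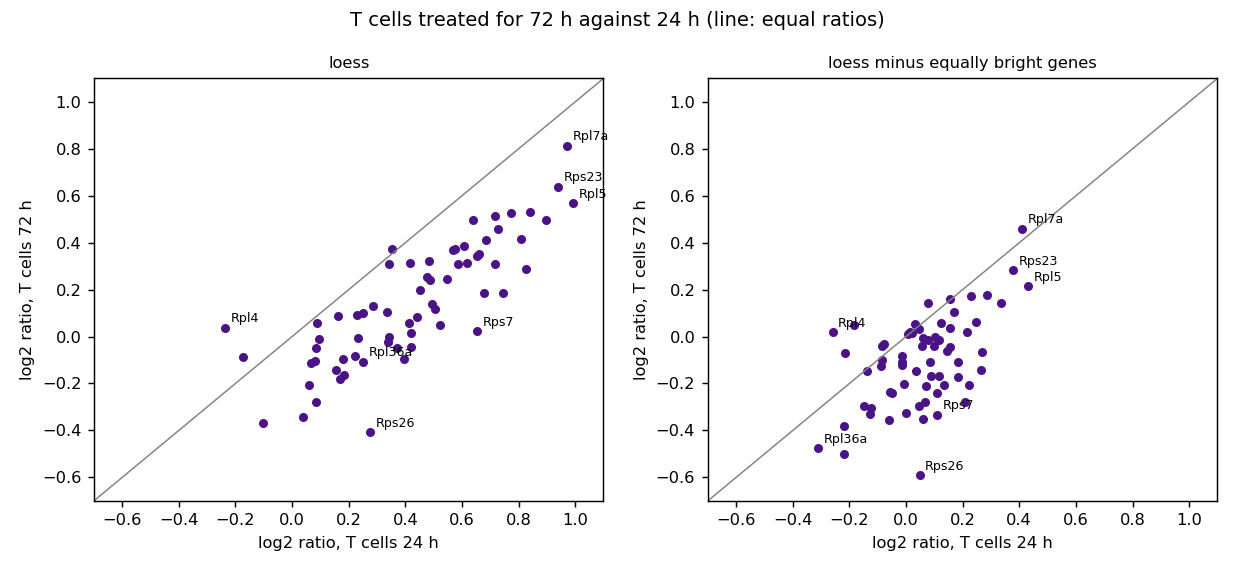
The log2 ratio in T cells treated for 72 h (vertical axis) is plotted against that in T cells treated for 24 h (horizontal axis) for the ribosomal protein genes measured on both arrays, after loess (left) and with equally bright other genes subtracted (right). The line marks equal ratios. Above it lie 3 genes on the loess scale, and Rps26 lies farthest below it.

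Single channels were compared between the days after a scaling that gives every array the same distribution of brightness. Untreated RNA of day 17 against day 14 had a median member difference of 0.13, with 56 of 66 members above 0. For all genes it was -0.003, with 7888 of 15877 above 0. Treated RNA of the same days had -0.15, with 6 of 66 members above 0, against -0.007 and 8335 of 16915 for all genes. For untreated RNA no member was 2-fold higher at day 17 (7.67% of all genes) and 1, Rpl3l at -1.17, was 2-fold lower (3.68%). For treated RNA no member was 2-fold higher (6.81%) and Rpl3l was again lower, at -1.52 (5.39%). The untreated difference was -0.08 when the scanner software's processed signals were scaled to their 75th percentile, and the treated difference was -0.21, against -0.12 and -0.08 for all genes. How the lower ratio at 72 h divides between the channels therefore depended on the scaling.

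The level of the family in stromal cells beside T cells depended on the scaling. With equal distributions of brightness, a scaling that by its construction holds the brightest genes of the arrays together, untreated stromal cells minus untreated T cells of day 14 had a median of 0.04 over 68 members, against 0.26 for all genes measured on both. The SD was 0.28 over the members and 1.46 over all genes. One member was 2-fold higher in stromal cells, Rpl7l1 at 1.33 (24.7% of all genes), and none was 2-fold lower (15.6%). Lowest was Rpl4 at -0.82. With processed signals scaled to their 75th percentile the median was 0.76 against 0.39 for all genes. The members were thus below all genes on one scale and above them on the other.

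Stromal markers had higher ratios in the T cell cultures, and their part in the members' ratios was not tested. All 10 measured markers were above 0 at 24 h (median 0.95, range 0.10 to 1.27) and all 11 at 72 h (median 0.86, range 0.03 to 1.11). The median untreated log2 level of the 12 markers was 12.02 and 13.17 on these arrays, against 14.00 in the stromal cells. Myeloid and mast cell markers went the other way at 72 h, with a median of -1.27 over 5 genes (range -2.13 to 0.33), after -0.16 at 24 h. B lineage markers had medians of 0.15 over 5 genes and -0.19 over 4. The part of these lists was not tested either. In bulk RNA, fewer cells of a type and less RNA per cell cannot be told apart.

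Paralogs are given beside their main copies, each gene across samples, since signals of different probes are not compared as levels. Rpl22, which binds RNA and is needed for normal alpha-beta T cell development, had ratios of 0.15 in stromal cells, and of 0.52 at 24 h and 0.05 at 72 h in T cells. Its untreated log2 signal was 15.47, 15.51 and 15.84, and its treated signal 15.62, 16.03 and 15.88. Its paralog Rpl22l1 had ratios of -0.26, 0.25 and 0.10, with 15.92, 15.52 and 15.50 in untreated RNA. Both had their highest ratio in T cells at 24 h. The dimmer probe of Rpl22, also listed under a RefSeq mRNA, had -0.30, -0.22 and -0.40, so the positive ratios of this gene rest on its brighter probe. Levels set across arrays here and below use the equal distributions of brightness.

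Rpl3l, the striated muscle paralog of Rpl3, was not well above background in untreated stromal cells. Its untreated signal in T cells of day 14 was 8.76, at least 5.78-fold higher than the stromal bound, and 7.59 at day 17. Its ratios were 0.17 and -0.18 on the T cell arrays. Such a bound uses whichever is higher, the gene's own dim signal or the dimmest signal that clears background, and is open to dye bias. Rpl39l, the testis paralog of Rpl39, was also not well above background in untreated stromal cells, and at day 14 it was at least 1.33-fold higher in T cells.

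Rpl7l1, a Rpl7-like protein linked to ribosome assembly, had untreated signals of 11.95 in stromal cells, 10.62 at day 14 and 11.30 at day 17. Its main copy Rpl7 varied less, at 16.11, 15.95 and 16.22. Ratios were -0.16, -0.17 and -0.09 for Rpl7l1 and -0.03, 0.49 and 0.14 for Rpl7. Rps27l, a p53 target, had ratios of -0.19, 0.07 and -0.11 where Rps27 had 0.48, 0.62 and 0.31. Rpl36al had 0.05, 0.16 and -0.14 where Rpl36a had -0.17, 0.25 and -0.11 at its brightest probe, and 0.25, 0.41 and 0.07 at its dimmest. The paralog with the dimmer probe had the lower ratio in T cells at 24 h in each of these 3 pairs.

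Members that act outside the ribosome had no common level. Of those that bind Mdm2 and so link ribosome assembly to p53, Rpl11 had 0.46 in the stroma, had 0.57 in T cells at 24 h and was flagged at 72 h. Rpl23 had 0.14 in stromal cells and 0.27 at 72 h at its brighter probe, and -0.62 and -0.27 at its dimmer one, also listed under a RefSeq mRNA. Rpl26, which also binds the p53 mRNA, had 0.60 in stromal cells and was flagged on both T cell arrays. Apart from the dimmer Rpl23 probe, these values lie within the range of the other members.

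Rps6, the substrate of the S6 kinases and a readout of mTOR activity at the protein level, had 0.35, 0.42 and 0.31. Rpl13a, part of a complex that silences inflammatory mRNAs after interferon, had 0.38, 0.65 and 0.34. Rpl38, which favours translation of Hox mRNAs, had 0.55, 0.64 and 0.50. Each was above 0 on all 3 arrays, as were 36 of the 64 members measured on every array. With the scanner software's ratio 22 of 64 were, and neither count was set beside all genes. Beside equally bright genes Rps6 had -0.09 and -0.04 on the T cell arrays and Rpl38 had -0.10 in stromal cells.

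Of other genes mutated in Diamond-Blackfan anaemia or lost in a related anaemia, Rps19 had 0.44, 0.59 and 0.31 and Rpl35a had 0.05, 0.28 and 0.13. The Rps19 values are from a probe with no RefSeq mRNA in the file. Its dimmer probe listed under a RefSeq mRNA had -0.15, 0.21 and 0.07. Rps14 had 0.84 and 0.97 at 24 h in stromal and T cells and was flagged at 72 h. Rps27a, made as a fusion with ubiquitin, had -0.09, 0.23 and 0.09, and Rpl10a had 0.19, 0.16 and 0.09. Rpl10, Rps4x and Rpl9 had 0.70, 0.32 and 0.32 in stromal cells. In T cells at 24 h they had 0.44, 0.48 and 0.45. The file places the Rpl10 probe on chromosome 8, though the gene is X-linked. Processed copies of ribosomal protein genes are common, and probes here may bind RNA of more than 1 copy.

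Members kept much of their order from array to array. Pearson's r over members was 0.74 between stromal cells and T cells at 24 h (68 genes), 0.83 between the T cell arrays (66 genes) and 0.60 between stromal cells and T cells at 72 h (70 genes). Beside equally bright genes it was 0.53, 0.55 and 0.22. Over genes outside the family, of any brightness, the loess ratios gave 0.06, 0.50 and 0.14. Most of those genes are far dimmer than the members, whose ratio rose with brightness on every array, so these sets are not alike. The arrays share probes, slide and dye orientation, so a common order includes any fixed dye effect of a probe.

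Related genes were described the same way. The other cytosolic ribosomal proteins, named outside the rule, numbered 6, and their medians were 0.61, 0.65 and 0.22. Rplp0, a protein of the stalk, had 0.92, 0.80 and 0.59. Rpsa, the laminin receptor protein, had -0.04, -0.06 and -0.00. All 75 mitochondrial ribosomal proteins were measured, at a median brightness of 12.42, 11.96 and 12.27. Their median ratios were 0.03, 0.03 and -0.05, near those of all genes, and none was 1.5-fold higher.

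Elongation factors and other TOP mRNAs, 14 genes, had medians of 0.04, 0.26 and 0.16. In stromal cells Eef1g had 0.87 and Eef1b2 0.83, while Eif3e had -0.82. The 20 ribosome biogenesis genes had medians of 0.01, -0.08 and -0.05, and the nucleolar protein Ncl had -0.89 in stromal cells. Of the regulators, 9 were measured in stromal cells, with a median of -0.00, and 10 in T cells, with -0.12 and -0.02. Rheb, which activates mTOR, had -0.70 in stromal cells, and Myc had -0.00, -0.20 and 0.20. None of these lists reached the members' median loess ratio in T cells at 24 h except the 6 other ribosomal proteins, which are somewhat brighter than the members. The other lists are dimmer than the members. Beside equally bright genes the TOP list had medians of 0.03, 0.05 and -0.04, where the members had -0.08, 0.07 and -0.07. At 24 h in T cells the biogenesis genes and the regulators had -0.10 each on that scale, and the 6 other ribosomal proteins 0.09.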

How the data were processed

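Per the file headers, Agilent Feature Extraction 10.5.1.1 gave the deposited spot intensity values, a mean signal and a median local background for each channel, and a deposited log10 ratio of Cy5 over Cy3 after the software's own background and dye correction. The latter was turned to log2 and is called the scanner software's ratio. Background correction used normexp with an offset of 50 (limma 3.58.1, R 4.3.3), and each array was normalized by loess (span 0.3) with control and outlier-flagged spots at weight 0. Single channels were scaled across arrays by Aquantile. A gene was measured where a share of at least 0.5 of its unflagged spots was well above background in both channels. Counts used 1.5-fold and 2-fold. Simulated arrays were used to check the normalization. Tables were made with Python 3.11.15, numpy 2.4.6 and pandas 2.3.3.

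Named were the 5 highest and 5 lowest members per array, those past 1.5-fold where 12 or fewer, the 3 brightest and dimmest, the 5 with the widest probe spread, lists of paralogs, p53-linked, disease and signalling genes, and up to 4 genes of each related list. The members and lists were chosen with earlier results of these data known. Promoter motifs, the probes printed and the genes named for a single count were chosen after values were seen. Precision is limited by 1 array per comparison. Some member genes are counted but not named or drawn by name here.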

Additional observations from a re-analysis of the deposited data

How the results depend on the processing

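One array per comparison limits every value, and no spread between cultures is known. Member medians kept their direction and moved little with a normexp offset of 0, a loess span of 0.7, loess fitted without the members, and a background filter in 1 channel or none. Quantile scaling of single channels kept the direction of the 3 single-channel medians, but moved stromal minus T cells from 0.0435 to 0.0179 (0.0259 with an offset of 0), untreated day 17 minus day 14 from 0.13 to 0.0597 and treated from -0.15 to -0.0590. Keeping the flagged spots and subtracting the running median from the scanner software's ratio were alternatives chosen after seeing the data. The cause of each shift below was not tested.

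With the scanner software's ratio the medians for stromal cells, 24 h and 72 h T cells and 72 h minus 24 h were 0.0741, 0.12, -0.0152 and -0.17. After subtraction of the running median they were -0.0782, 0.0698, -0.0725 and -0.16, and subtracted from the scanner software's ratio -0.0589, 0.0828, -0.10 and -0.15. With median centring on measured genes the first 3 were 1.06, 0.93 and 0.75, and on all probes the 4 were 1.71, 1.35, 1.30 and -0.0898. With the median over probes the first 3 were 0.21, 0.31 and 0.0865, and plain background subtraction gave 0.35 in T cells at 24 h. Processed signals scaled to the 75th percentile gave 0.76 for stromal cells minus T cells and -0.0752 for untreated day 17 minus day 14.

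Counts of members at least 1.5-fold higher, 17, 23 and 3, were 0, 0 and 0 with the scanner software's ratio and on both running median scales. They were 59, 54 and 46 with centring on measured genes and 74, 65 and 69 with centring on all probes, where 44, 29 and 13, and 68, 55 and 56, reached 2-fold. Plain subtraction gave 14 in T cells at 24 h, and keeping flagged spots gave 6 at 72 h. With flagged spots kept 1 member reached 2-fold on each 24 h array. In T cells at 24 h a span of 0.7 gave 4 such members and loess without the members 2. At least 1.5-fold lower in stromal cells were 1 with the scanner software's ratio and 3 and 4 on the running median scales, and 1 at 72 h on both of these. Members above 0 were 29 and 29 in stromal cells and 23 and 19 at 72 h on those scales, and 33 at 72 h with the scanner software's ratio.

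Among the members past 1.5-fold after loess that reversed in stromal cells, Rpl26 and Rps23 were -0.0539 and -0.0484 on the first running median scale. On the second they were -0.12 and -0.19, with Rpl32 at -0.0217, and Rps3 in T cells at 24 h was -0.00068. Smaller ratios changed sign too, as Rpl5 in stromal cells from 0.44 to -0.21 and Rps24 in T cells at 24 h from 0.42 to -0.12 on the first.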
